A study of Mus musculus with 32 samples.

Results

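Lipid handling was described across 8 inbred mouse strains by 8 genes: Lpl, Apoe, Abca1, Fasn, Scd1, Scd2, Acaa1a and Acaa1b. Every probe set of the array whose only gene symbol in the platform annotation was one of these names was taken, which gave 15 probe sets for 8 genes, out of 10855 probe sets with 1 symbol. The genes were selected on their log2 signals across the strains, with differences on these same arrays already known, among them the high Scd1 of FVB/NJ and the wide range of Acaa1b, so their levels below are a description, with no p-value, and their F-test calls are given only as counts. The strains were SJL/J, FVB/NJ, DBA/2J, C57BL/6J, C3H/HeJ, BALB/cByJ, A/J and the strain that its sample titles call hippocampus_129S1SvImJ. No treatment is named for any strain, and no source used here gives the age or sex of the mice. For each strain the hippocampal RNA of 6 mice was combined in 1 pool. The cDNA of a pool served for 2 rounds of cRNA synthesis (preparations 1 and 2), and each round was measured on 2 Affymetrix U74Av2 arrays, a mouse expression array. A strain is therefore 1 pool measured 4 times: the spread given below is technical, and the spread between mice is unknown.

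These genes cover the main steps by which brain cells move and make lipid. Apolipoprotein E (Apoe) is the chief lipid carrier secreted by astrocytes, Abca1 is the transporter that loads cholesterol and phospholipid onto it, and lipoprotein lipase (Lpl) is the enzyme that releases fatty acids from lipoprotein particles. Fatty acid synthase (Fasn) builds saturated fatty acids, and the stearoyl-CoA desaturases Scd1 and Scd2 turn them into monounsaturated ones for membranes and myelin. Acaa1a and Acaa1b are paralogous thiolases that carry out the last step of fatty acid oxidation in peroxisomes. In liver, several of these genes are targets of the nuclear receptors LXR and PPARα and of the sterol-sensing factors of the SREBP family.

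Acaa1a and Acaa1b lie on mouse chromosome 9 with 4 protein-coding genes between them in RefSeq order, and their start regions are shown because both genes had the same 3 strains at the top. The sequences are the 250 bases before each start, from RefSeq (GRCm38.p6, the C57BL/6J reference), written 5′ to 3′ on the strand of the gene. The window of Acaa1a lies at chr9:119341044-119341293, with the gene on the plus strand, and that of Acaa1b at chr9:119157094-119157343, with the gene on the minus strand. Capitals mark CCAAT boxes (CCAAT, or ATTGG where it lies on the opposite strand) and GC boxes (GGGCGG), and no 2 of the marked matches overlap.
Acaa1a: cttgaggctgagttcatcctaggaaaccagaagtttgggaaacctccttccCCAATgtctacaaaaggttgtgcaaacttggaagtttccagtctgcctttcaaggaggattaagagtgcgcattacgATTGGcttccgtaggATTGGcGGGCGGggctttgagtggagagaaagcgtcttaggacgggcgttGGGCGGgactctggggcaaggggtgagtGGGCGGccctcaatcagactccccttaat
Acaa1b: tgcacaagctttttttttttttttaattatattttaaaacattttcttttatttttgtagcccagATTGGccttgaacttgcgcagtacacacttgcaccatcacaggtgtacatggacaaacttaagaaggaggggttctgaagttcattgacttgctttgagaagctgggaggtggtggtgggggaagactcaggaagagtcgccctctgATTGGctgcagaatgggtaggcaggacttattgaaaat

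The 2 windows matched at 124 of 250 bases in a global alignment. Acaa1a held 3 CCAAT boxes and 3 GC boxes, and Acaa1b held 2 CCAAT boxes and no GC box. Of 32851 RefSeq promoter windows of the same length, 33.8% held CCAAT and 32.7% held GGGCGG on either strand. A TATA box (TATAAA, in 12.4% of all windows), the nuclear receptor half-site AGGTCA (14%), its direct repeat DR1 (0.0335%) and the sterol regulatory element TCACNCCAC (1.05%) were searched on both strands and matched in neither window. The matches describe letters in the reference strain only.

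The deposited values are MAS5 signals, and all levels below are log2 of the signal unless a signal is named. A strain mean is the mean of its 2 preparations, with the SD between them (n = 2), and the number of arrays limits its precision. Strains were compared over the 7453 brightest of 12422 probe sets, and 14 of the 15 lipid handling probe sets were among them. Median signals of the arrays were 29.4 to 43.7. Arrays of BALB/cByJ correlated less with their own strain (mean r 0.888 to 0.906 over all probe sets) than arrays of the other strains did (0.914 to 0.949). Of the measured markers of hippocampal neurons 9 of 9 were in the tested set, which is a rank by signal and not a detection call. Among them were Nrgn at 10.01, Neurod6 at 7.41 and Prox1 at 5.27. The mean signal of Prox1, 38.5, lay within the range of the array medians. In whole tissue, fewer cells of a type and less RNA per cell cannot be told apart.

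Lpl, both Acaa1 thiolases and, less clearly, Scd1 differed in level between strains by more than their preparations did, while the strain means of Apoe and Fasn lay close together. The range from the highest to the lowest strain mean ran from 0.41 for Apoe to 2.68 for Acaa1b over the 14 tested probe sets, with a median of 1.13, against a median of 0.68 over all tested probe sets. Limma's moderated F-test called 4 of the 14, for Lpl (on both of its probe sets), Acaa1a and Acaa1b, where 4.58% of all tested probe sets were called. With the preparation number as a block it called 8 of the 14, adding 3 probe sets of Scd1 and 1 of Scd2, where 18.9% of all were called. The genes were chosen with such results known, so nothing is read from these counts.

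**Figure D1:**
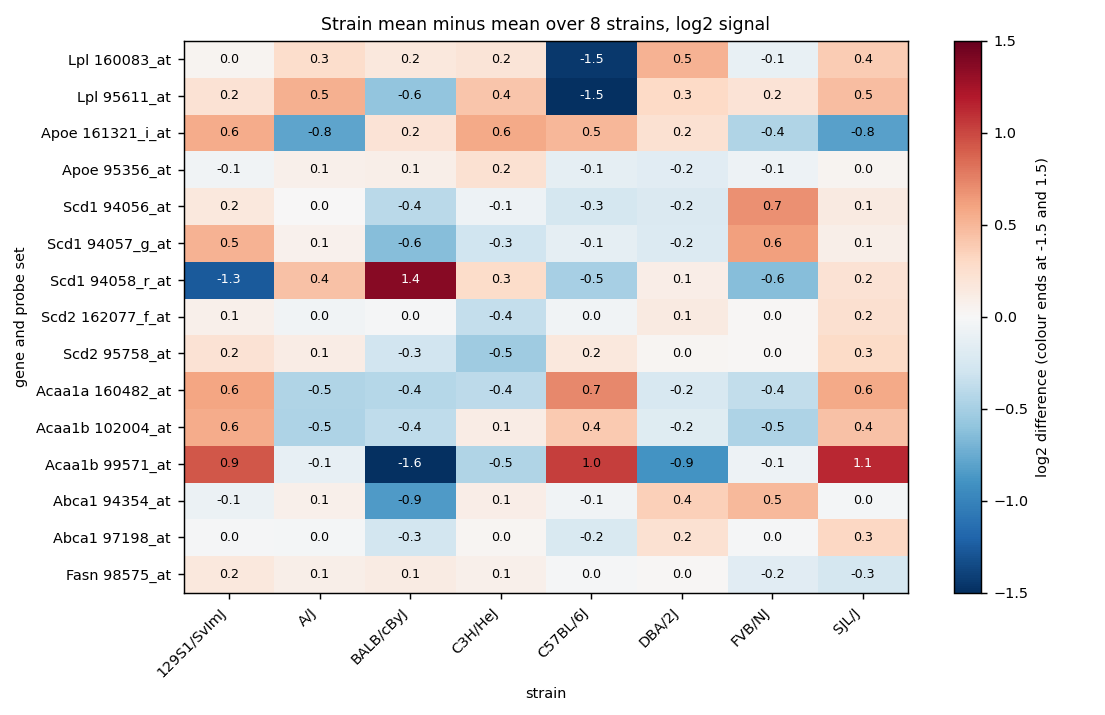
Strain means of the 15 lipid handling probe sets (rows) in the 8 strains (columns), as log2 signal minus the mean over strains; red is higher and blue lower than that mean. C57BL/6J stands out as low for both Lpl probe sets, and hippocampus_129S1SvImJ, C57BL/6J and SJL/J share high values for Acaa1a and Acaa1b.

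Lpl, the lipase, was lowest in C57BL/6J on both of its probe sets. On 95611_at the preparations of C57BL/6J read 5.35 and 5.84, and the 14 preparations of the other strains read 6.25 or more. BALB/cByJ came next, at 6.86 and 6.25, and the other 6 strains had means from 7.35 ± 0.16 in FVB/NJ to 7.67 ± 0.20 in A/J. C57BL/6J, at 5.60 ± 0.35, thus lay below BALB/cByJ (6.55 ± 0.43) without overlap, and BALB/cByJ below the next strain, also without overlap. The 6 strains above them overlapped with their neighbours in the order and cannot be ranked. Highest over lowest strain, A/J over C57BL/6J, the range was 4.22-fold (2.08 on the log2 scale).

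On the single arrays, the 4 signals of C57BL/6J on 95611_at were 54.9, 30.2, 59.9 and 55.0, and those of BALB/cByJ were 132.3, 101.7, 48.5 and 119.4. In the other strains the signal lay above these C57BL/6J values on every array, from 111.2 in FVB/NJ to 229.8 in C3H/HeJ. A single BALB/cByJ array therefore overlapped with C57BL/6J, and only 1 of the 4 C57BL/6J arrays was below all 28 others.

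The second Lpl probe set, 160083_at, separated C57BL/6J more sharply and did not set BALB/cByJ apart. C57BL/6J read 3.90 and 4.67 in its 2 preparations, and BALB/cByJ read 5.76 and 6.03. All 14 preparations outside C57BL/6J were at 5.47 or more, and the 4 C57BL/6J signals (8.4, 26.7, 27.7 and 23.5) were below those of all 28 other arrays. The range was 3.92-fold from DBA/2J (6.26 ± 0.02) to C57BL/6J (4.29 ± 0.54). The low first array of C57BL/6J weighs on this value: the log2 difference between DBA/2J and C57BL/6J was 1.97 with it and 1.55 without it. For 2.60% of all tested probe sets both C57BL/6J preparations lay below the other 14, and both Lpl probe sets were among them.

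The 2 Lpl probe sets had a Pearson correlation of 0.871 over the 8 strain means. Strain held 73.9% and 70.9% of the variance over arrays on 95611_at and 160083_at. The difference between the highest and the lowest strain was 2.18 in the first preparation and 1.97 in the second on 95611_at, and 2.34 and 1.60 on 160083_at.

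**Figure D2:**
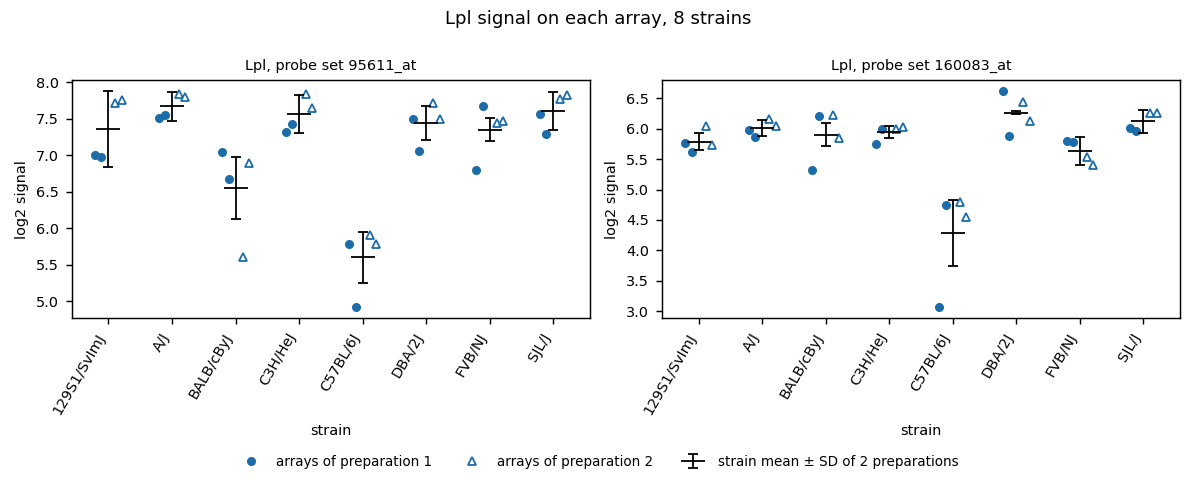
Log2 signal of Lpl on each of the 32 arrays for its 2 probe sets, by strain, with filled circles for the arrays of preparation 1, open triangles for preparation 2, and bars for the strain mean ± SD of the preparations. The C57BL/6J arrays form the lowest group in both panels; on 95611_at a BALB/cByJ array with a signal of 48.5 lies among them.

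The strain pattern of Lpl was most like that of 3 genes elsewhere in the genome, taken by correlation over the 8 strain means among 289 probe sets past the F-test. These were Gnb1, a G protein beta subunit on chromosome 4 (r = 0.932), Gabra2, a GABA-A receptor subunit on chromosome 5 (r = 0.930), and Alad, an enzyme of haem synthesis on chromosome 4 (r = 0.884). All 3 were lowest in C57BL/6J: Gnb1 read 4.99 there and 7.47 in the next lowest strain, Gabra2 6.53 and 8.00, and Alad 6.33 and 7.34. Here and for the genes below, the highest of 289 correlations over 8 means are high in part by selection, and none was tested. Among the 10 protein-coding genes on either side of Lpl on chromosome 8, 3 had tested probe sets (Npy1r, Atp6v1b2 and Zfp930, 5 probe sets), and limma's F-test called 0 of these 5, with 1 at an unadjusted p under 0.05 and 1 called with the block. Npy1r, a neuropeptide Y receptor, had the lowest adjusted p (0.056) and was lowest in BALB/cByJ (3.81), not in C57BL/6J (5.36).

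Some marker lists of other cell types also had an extreme sum in C57BL/6J, and others did not. The sum for meninges and fibroblasts was 2190 in C57BL/6J, within the 1920 to 2960 of all strains. The sums for endothelial cells and pericytes (357, within 267 to 382) and erythroid cells (839, within 750 to 1600) were not extreme there either. The summed signal of 4 choroid plexus genes was lowest in C57BL/6J, at 213, against 258 to 561 elsewhere. Of this list the F-test called 1 of 4, transthyretin (Ttr), which read 6.11 in C57BL/6J, against 6.72 to 8.46 elsewhere (limma F-test, adjusted p = 4.8e-05). The sum over 9 hippocampal neuron genes, 3 of them called, was 6380 in C57BL/6J, 5750 in DBA/2J and 6830 to 8390 in the remaining strains. Of the called neuron genes, Neurod1, a transcription factor of granule neurons, was lowest in C57BL/6J (4.90, against 5.30 to 6.63, limma adjusted p = 0.0052), while the lowest strain was DBA/2J for Camk2a (8.02, with C57BL/6J at 8.55) and SJL/J for Nrgn (9.49, with C57BL/6J at 9.76). Sums for astrocytes (4240 in C57BL/6J, against 3400 to 4130 elsewhere), oligodendrocytes (3910, against 2840 to 3360) and microglia (1610, against 1160 to 1480) were highest in C57BL/6J. The members did not all follow these sums. Of the meninges and fibroblast genes, Dcn (8.38), Col1a2 (8.46) and Igf2 (7.96) were lowest in C57BL/6J. Col1a1, Col3a1, Lum and Ptgds were not. Of the erythroid genes, Hbb-b2 was lowest in C57BL/6J (6.23, against 6.34 to 7.92, limma adjusted p = 0.00058), and Hba-a1 and Alas2 were not. The F-test called 1 of 6 tested genes of the meninges list, Ptgds, and 2 of 2 erythroid genes. Of the astrocyte genes only Aldoc, the brightest, was highest in C57BL/6J (11.30). Slc1a2, a glutamate transporter, was lowest there (6.32, against 6.51 to 7.45). Of the microglia genes, C1qb (7.52), C1qc (8.43) and Tyrobp (6.35) were highest in C57BL/6J. The rest were not, and Cx3cr1 was lowest there (6.82). Mbp, Mag, Mog and Mobp were highest in C57BL/6J, and Cldn11, Ugt8a and Cnp were not. Of the choroid plexus genes, Ttr and Igfbp2 were lowest in C57BL/6J, Folr1 in hippocampus_129S1SvImJ and Kl in BALB/cByJ. Limma's F-test called 0 of 6 astrocyte genes (3 at an unadjusted p under 0.05, and 3 called with the block), 1 of 6 oligodendrocyte genes (1 and 1) and 1 of 7 microglia genes (4 and 4), where 4.58% of all tested probe sets were called. The called genes were Mag, highest in C57BL/6J (8.31), and Ctss, highest in A/J (8.80, with C57BL/6J at 8.36). Their part in the Lpl values was not tested. Adipocytes are a strong source of Lpl, and 4 of the 5 measured adipocyte markers (Adipoq, Fabp4, Retn and Ucp1) had mean signals of only 4.33 to 10.1, below the tested range. The adipocyte sum, most of it from Lep, was 179 in C57BL/6J, against 169 to 264 for all others.

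Acaa1a, a peroxisomal thiolase, split the strains into 2 levels with a wide gap. Its preparations read 7.79 and 7.65 in C57BL/6J, 7.58 and 7.62 in hippocampus_129S1SvImJ, and 7.46 and 7.68 in SJL/J. The remaining 10 preparations lay between 6.39 and 6.87, in A/J, BALB/cByJ, C3H/HeJ, DBA/2J and FVB/NJ. On single arrays the signal was 163.7 or more in the high strains and 124.7 or less in the others, so the 12 high and 20 low arrays did not overlap. The range was 2.24-fold, from C57BL/6J (7.72 ± 0.09) to A/J (6.55 ± 0.23). Within the lower level all neighbours in the order overlapped, and SJL/J (7.57 ± 0.16) stood 0.82 above the nearest of them, DBA/2J (6.76 ± 0.17).

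Strain held 88.4% of the variance of Acaa1a over arrays, the largest share among the 15 probe sets, and the preparation 0.416%. The difference between C57BL/6J and A/J was 1.40 in the first preparation and 0.93 in the second.

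Acaa1b, the second thiolase gene, had the same 3 strains at the top on probe set 99571_at, with a wider range. SJL/J read 6.41 and 6.46, C57BL/6J 6.31 and 6.36, and hippocampus_129S1SvImJ 5.93 and 6.53. All other preparations were at 5.51 or less. Single arrays did overlap: array 1 of hippocampus_129S1SvImJ had a signal of 39.8, and array 2 of C3H/HeJ one of 77.5. FVB/NJ (5.23 ± 0.09) and A/J (5.18 ± 0.05) came next and overlapped. Below them C3H/HeJ averaged 4.85 ± 0.93, DBA/2J 4.41 ± 0.23 and BALB/cByJ 3.75 ± 0.27. The range from SJL/J to BALB/cByJ was 6.42-fold.

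The low end of Acaa1b was measured poorly. The 4 signals were 8.9, 40.5, 10.2 and 55.9 in DBA/2J and 26.9, 77.5, 10.5 and 31.8 in C3H/HeJ, against 13.5, 17.6, 11.0 and 12.6 in BALB/cByJ. BALB/cByJ had the lowest preparations, 3.95 and 3.56 with all others at 4.19 or more, but 2 arrays of DBA/2J and 1 of C3H/HeJ read below all 4 of its arrays. Both preparations of BALB/cByJ were below the other 14 for 5.68% of all tested probe sets. Without BALB/cByJ the lowest strain was DBA/2J and the range was 2.02 on the log2 scale, in place of 2.68.

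The other Acaa1b probe set, 102004_at, was dim and noisy, with a mean signal of 26.1 and an SD between preparations of 0.56. Its 3 highest means were again hippocampus_129S1SvImJ (5.26 ± 0.19), SJL/J (5.14 ± 0.37) and C57BL/6J (5.10 ± 0.89), but the ranges of their preparations all overlapped with that of C3H/HeJ (5.49 and 4.15), and those of SJL/J and C57BL/6J also with that of DBA/2J (4.01 and 5.04). Over the 8 strain means it had a correlation of 0.893 with Acaa1a and 0.758 with 99571_at, and Acaa1a and 99571_at had one of 0.859. Acaa1a and Acaa1b are close paralogs, and probe sequences were not used here, so whether a probe set reads 1 or both genes was not tested.

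**Figure D3:**
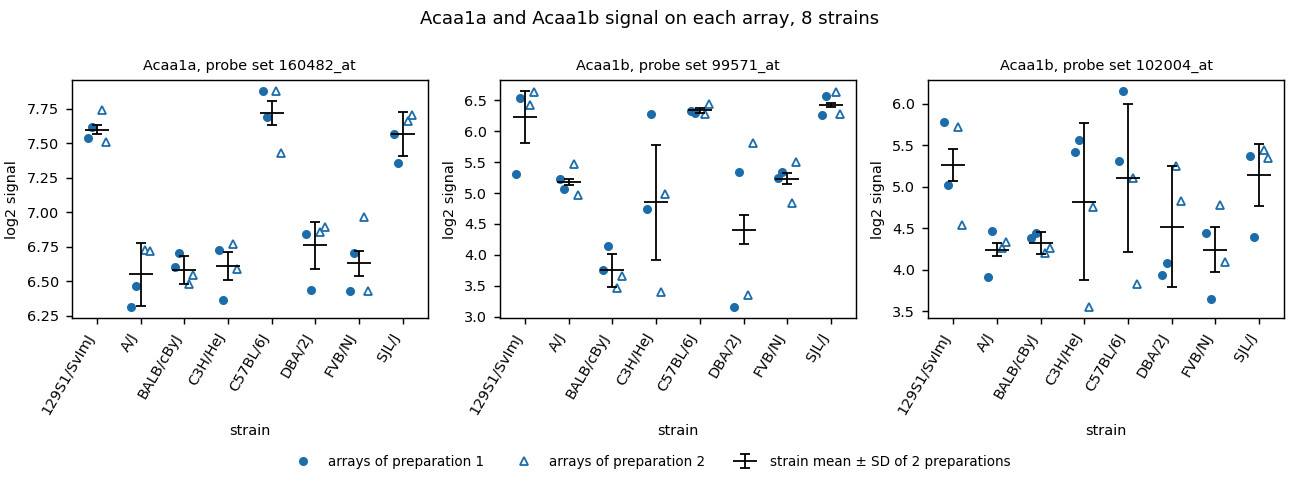
Log2 signal of Acaa1a (left) and of both Acaa1b probe sets (middle and right) on each of the 32 arrays, by strain, with filled circles for preparation 1, open triangles for preparation 2, and bars for the strain mean ± SD. In the left panel hippocampus_129S1SvImJ, C57BL/6J and SJL/J sit above all other arrays. The middle panel shows the same strains with the highest means, but array 1 of hippocampus_129S1SvImJ lies below array 2 of C3H/HeJ. Within C3H/HeJ and within DBA/2J the arrays lie far apart from each other there.

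Genes around the thiolases were examined next. Of the 10 protein-coding genes on either side of Acaa1a, 3 had tested probe sets, and limma's F-test called 0 of their 5 (0 at an unadjusted p under 0.05 and 0 with the block), with adjusted p from 0.43 to 0.98. Acvr2b, an activin receptor, read 6.65 in C57BL/6J, 6.56 in hippocampus_129S1SvImJ and 6.77 in SJL/J, against 6.54 to 6.88 in the other strains, and Plcd1, a phospholipase 2 gene positions from Acaa1b, had its highest mean in A/J (5.56). Among the same 289 probe sets past the F-test, the genes most like Acaa1a were Nop10 (r = 0.832), Itfg1 (r = 0.765) and Thumpd1 (r = 0.761), and those most like Acaa1b were a probe set of Pdxdc1 (r = 0.874), Itfg1 (r = 0.871) and Padi2 (r = 0.857).

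Scd1, the desaturase best known from liver and fat, was highest in FVB/NJ. On 94056_at FVB/NJ read 9.24 and 9.56, and the other 14 preparations lay between 8.07 and 9.05. The next strain was hippocampus_129S1SvImJ (8.87 ± 0.26), and from there downward the strains formed a gradual order to BALB/cByJ (8.31 ± 0.34) in which all neighbours but SJL/J and A/J overlapped. FVB/NJ over BALB/cByJ was 2.13-fold. Both FVB/NJ preparations lay above the other 14 for 0.456% of all tested probe sets, and 3 of the 4 FVB/NJ arrays were above all 28 others. Those were arrays 2, 3 and 4 (signals 700.2, 788.1 and 721.6), while array 1 had a signal of 522.7. On 94056_at the second preparation was higher in 7 of 8 strains, by 0.23 on average. The log2 difference between FVB/NJ and BALB/cByJ was 1.09. It was 1.00 on single arrays with the day in the title as a covariate, and 0.97 with array 2 of FVB/NJ moved to the second preparation. That move leaves array 1 alone as preparation 1 of FVB/NJ, at 9.03. This is below preparation 2 of hippocampus_129S1SvImJ (9.05), so FVB/NJ then no longer lies above the other 14 preparations.

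Probe set 94057_g_at also had FVB/NJ on top (9.01 and 9.16), but hippocampus_129S1SvImJ (9.03 and 8.95) overlapped with it, and its range was 2.39-fold. On 94057_g_at, too, the second preparation was higher in 7 of 8 strains, by 0.38 on average. The correlation of these 2 probe sets over strain means was 0.889. The third, 94058_r_at, went the other way, highest in BALB/cByJ (5.78 ± 1.04) and lowest in hippocampus_129S1SvImJ (3.15 ± 0.83). It was near the lower limit of the tested range, with a mean signal of 21.3. Its level was lower in the second preparation in all 8 strains, by 1.44 on average. The preparation held 61.3% of its variance and strain 0%. These shares count the shift that all strains had in common as preparation. With that shift taken out by the block, the F-test called this probe set.

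Scd2, the main desaturase of brain, was lowest in C3H/HeJ on both probe sets. On 95758_at C3H/HeJ read 10.86 and 10.58, against 10.82 to 11.78 in the other strains, so that its first preparation overlapped with BALB/cByJ (11.13 and 10.82). SJL/J was highest (11.54 ± 0.33) and the range was 1.77-fold. Both C3H/HeJ preparations lay below the other 14 for 0.604% of all tested probe sets, and neither Scd2 probe set was among them. On this probe set the level was lower in the second preparation than in the first in all 8 strains, by 0.30 on average. On 162077_f_at, whose suffix marks possible reading of related transcripts, C3H/HeJ had 9.32 and 9.70, which overlapped with C57BL/6J (10.01 and 9.63) and A/J (9.69 and 9.94), and the second preparation was lower in 6 of 8 strains, by 0.14 on average. Over strain means, the Scd1 probe set 94056_at had a correlation of 0.29 with 95758_at and 0.188 with 162077_f_at, and 94057_g_at had one of 0.576 with 95758_at and 0.331 with 162077_f_at. Both genes lie on chromosome 19. Around Scd1, 5 other genes had a tested probe set each, and limma's F-test called 0 of 5 (adjusted p from 0.75 to 0.98, with 0 at an unadjusted p under 0.05 and 0 called with the block). Among the 289 probe sets, the genes most like Scd1 in strain means were Cd47 (r = 0.832), Padi2 (r = 0.732) and Mark2 (r = 0.726), and those most like Scd2 were Prdx3 (r = 0.867), Washc2 (r = 0.860) and Syt1 (r = 0.835).

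**Figure D4:**
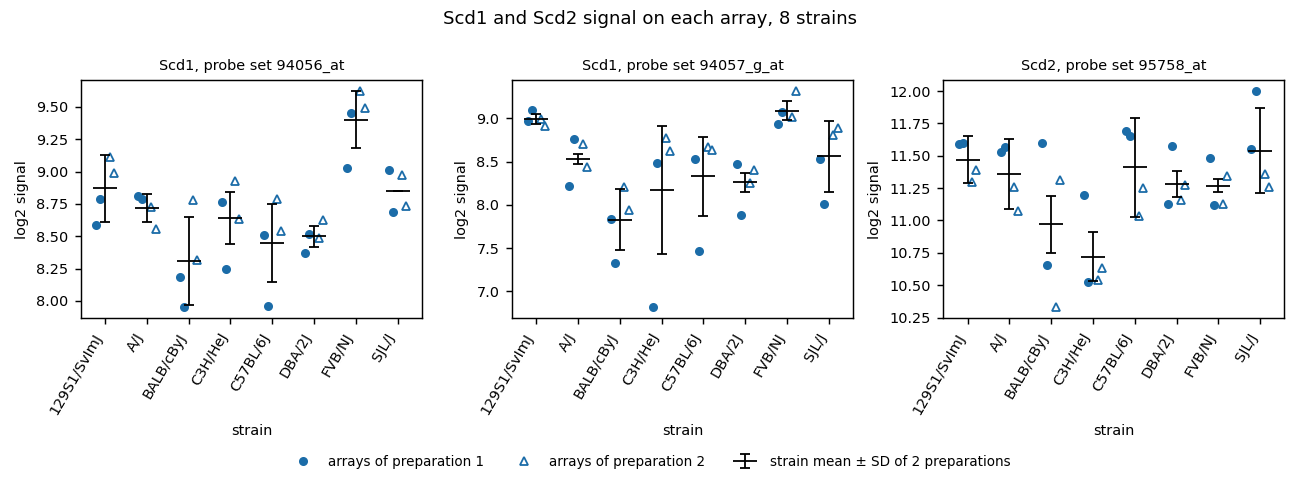
Log2 signal of Scd1 (left and middle) and Scd2 (right) on each of the 32 arrays, by strain, with filled circles for preparation 1, open triangles for preparation 2, and bars for the strain mean ± SD. FVB/NJ has the highest mean for Scd1 in both panels, C3H/HeJ the lowest for Scd2, and for Scd2 the mean of the filled circles is above that of the open triangles in all 8 strains.

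Apoe was even across strains. Its probe set 95356_at averaged 12.35, from 12.58 ± 0.35 in C3H/HeJ to 12.18 ± 0.09 in DBA/2J, a range of 1.32-fold. Only 15.9% of tested probe sets had a narrower range. The second preparation was lower in 7 of 8 strains, by 0.25 on average. The preparation held 49.1% of the variance, this shift included, and strain held 0%. The F-test did not call Apoe with the block either. The difference between C3H/HeJ and DBA/2J was 0.72 in the first preparation and 0.09 in the second. The other Apoe probe set, 161321_i_at, had a mean signal of 4.46 and was not tested. The summed signal of 6 astrocyte markers was 3400 to 4240 over the strains. Of the 289 probe sets, those most like Apoe were of Gm15772 (r = 0.893), Hbegf (r = 0.873) and Cplx2 (r = 0.842), though strain held 0% of the variance of Apoe.

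Abca1, the exporter that loads lipid onto Apoe, was dim on both probe sets, with mean signals of 46.9 and 47.0. On 94354_at it was higher in the second preparation in all 8 strains, by 0.87 on average. The preparation held 65.1% of the variance, this shift included, and strain 0%. The F-test did not call 94354_at with the block either. FVB/NJ had the highest mean (6.04 ± 0.30) and BALB/cByJ the lowest (4.70 ± 0.97), but the preparations of BALB/cByJ were 4.01 and 5.39, and all neighbours in the order overlapped. Without BALB/cByJ the range was 0.58, in place of 1.34. On 97198_at the strains spanned 1.49-fold, from SJL/J (5.86 ± 0.16) to BALB/cByJ (5.28), whose 4 signals were 32.1, 46.8, 58.8 and 25.5. This difference of 0.58 on the log2 scale was 0.88 without array 3 of BALB/cByJ and 0.28 without array 4. Among the same 289 probe sets, the genes most like Abca1 on 97198_at were Tbc1d24 (r = 0.785), Ndufc1 (r = 0.762) and Fv1 (r = 0.724). Strain held only 7.6% of the variance of 97198_at.

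Fasn, the synthase at the head of the pathway to Scd1 and Scd2, spanned 1.34-fold, from 8.25 ± 0.29 in hippocampus_129S1SvImJ to 7.83 ± 0.20 in SJL/J. The difference between these strains was 0.77 in the first preparation and 0.07 in the second. Its strain pattern was, within the 289 probe sets, most like that of Glg1, a Golgi glycoprotein (r = 0.965), Glo1, the glyoxalase (r = 0.843), and Tcte1 (r = 0.833). Strain held only 12.5% of the variance of Fasn.

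Other genes of lipid metabolism were examined in 9 lists of 200 genes, of which 135 were on the array and 101 were tested. Limma's F-test called 6 of the 101 (5.94%), against 4.58% of all tested probe sets, and the median range over these genes was 0.61, against 0.68 over all. With the preparation block 21 were called (20.8%, against 18.9% of all). The F-test has no direction. Among the 6 genes BALB/cByJ was lowest for 3, FVB/NJ for 2 and A/J for 1, and C57BL/6J and C3H/HeJ were highest for 2 each. For Apod, 1 of the 3, the preparations of BALB/cByJ overlapped with those of A/J, hippocampus_129S1SvImJ and SJL/J. BALB/cByJ was often low in this series, with both preparations below the other 14 for 5.68% of all tested probe sets.

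Among 13 peroxisomal oxidation genes 1 was called. Abcd3, the transporter that brings fatty acids into peroxisomes, read 8.68 ± 0.06 in C3H/HeJ, 8.64 ± 0.11 in C57BL/6J and 8.57 ± 0.14 in A/J, against 6.98 ± 0.04 in FVB/NJ, 7.03 ± 0.22 in SJL/J and 7.04 ± 0.17 in hippocampus_129S1SvImJ, with BALB/cByJ (7.73 ± 0.32) and DBA/2J (7.48 ± 0.02) in between (3.25-fold, adjusted p = 3.1e-05). Its order was not that of the thiolases, since SJL/J and hippocampus_129S1SvImJ were high for Acaa1a and low for Abcd3. Hsd17b4, Scp2 and Acot8, 3 more enzymes or carriers of this organelle, passed limma's F-test with the block (adjusted p of 0.0014, 0.017 and 0.037), against 0.067, 0.17 and 0.29 without it.

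Among 14 mitochondrial oxidation genes 1 was called. Acaa2, the mitochondrial counterpart of the Acaa1 thiolases, was highest in C3H/HeJ (8.35 ± 0.06) and A/J (8.22 ± 0.26) and lowest in FVB/NJ (6.84 ± 0.14) and BALB/cByJ (6.99 ± 0.34), a range of 2.85-fold (adjusted p = 0.0057).

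Of 5 binding proteins 2 were called, both lowest in BALB/cByJ. Fabp7, the fatty acid carrier of astrocytes and progenitors, read 8.70 ± 0.02 in A/J, against 7.40 ± 0.01 in BALB/cByJ and 7.77 ± 0.05 in C57BL/6J (adjusted p = 0.0047). Dbi, which binds acyl-CoA, read 9.52 ± 0.15 in C57BL/6J and 9.49 ± 0.03 in A/J, against 8.66 ± 0.04 in BALB/cByJ (adjusted p = 0.014). Both calls rested on BALB/cByJ, for without that strain the adjusted p was 0.13 for Fabp7 and 0.20 for Dbi.

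Of 13 genes of lipoproteins, their receptors and lipases 1 was called. Apod, an apolipoprotein of oligodendrocytes and astrocytes, was highest in C57BL/6J (7.99 ± 0.32) and lowest in BALB/cByJ (6.48 ± 0.03), A/J (6.51 ± 0.33), hippocampus_129S1SvImJ (6.53 ± 0.24) and SJL/J (6.53 ± 0.25), a range of 2.85-fold (adjusted p = 0.0069, and 0.051 without array 1 of C57BL/6J). The oligodendrocyte sum was highest in the same strain (3910), and its part in the Apod values was not tested.

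Of 12 genes of fatty acid synthesis and desaturation 1 was called. Hsd17b12, a reductase of fatty acid elongation, read 7.95 ± 0.06 in DBA/2J and 7.84 ± 0.28 in C57BL/6J, against 6.88 ± 0.24 in A/J and 6.94 ± 0.12 in C3H/HeJ (adjusted p = 0.026). This call was the least stable of the 6. Its adjusted p was 0.079 without array 4 of A/J, 0.088 without array 1 of C57BL/6J, 0.051 without array 4 of DBA/2J and 0.074 without array 2 of FVB/NJ. It was 0.062 without preparation 1 of A/J, 0.051 without preparation 1 of C3H/HeJ, 0.064 without preparation 2 of C57BL/6J, and 0.11 and 0.083 without preparation 1 or 2 of DBA/2J.

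**Figure D5:**
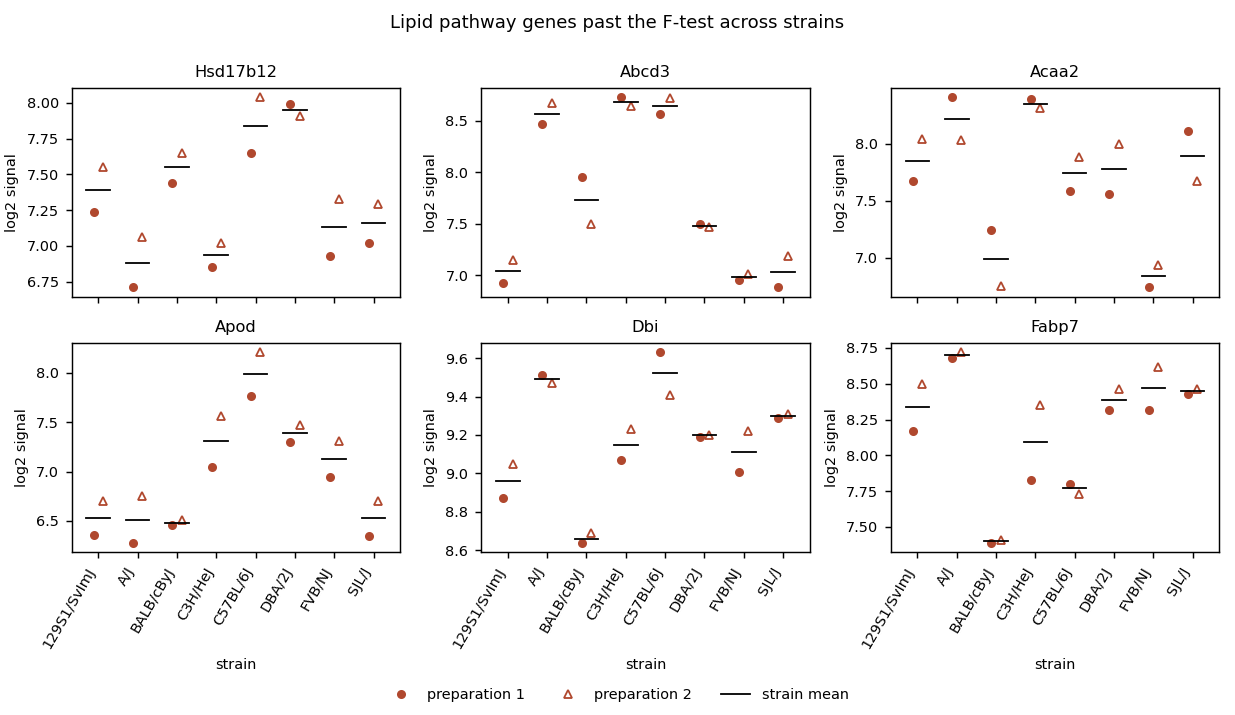
Log2 signal of the 6 lipid pathway genes past limma's F-test, by strain, with filled circles for preparation 1, open triangles for preparation 2 and lines for the strain mean. Abcd3 is highest in C3H/HeJ, C57BL/6J and A/J, and BALB/cByJ is lowest for Dbi and Fabp7 and among the lowest for Apod.

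Limma's F-test called 0 of 15 cholesterol synthesis genes, 0 of 8 genes of cholesterol export and turnover, 0 of 14 of triglyceride metabolism and 0 of 7 nuclear receptors and sterol sensors. At an unadjusted p under 0.05 there were 1, 1, 4 and 1 in these lists, and with the preparation block 3, 1, 3 and 1 were called. Those called with the block were Hmgcs1, Idi1 and Msmo1 of cholesterol synthesis, the exporter Abcg1, Agpat1, Lpin1 and Gpd2 of the triglyceride list, and the coactivator Ppargc1a. Of the other lists, Lipa, the lysosomal lipase, was called with the block (adjusted p = 0.006, against 0.11 without it) and read 5.86 ± 0.44 in FVB/NJ and 3.56 ± 0.24 in C57BL/6J. Elovl1, Acsl4 and Acadm were also called by limma's F-test with the block (adjusted p of 0.022, 0.037 and 0.022). Without it their adjusted p was 0.28, 0.69 and 0.52.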

How the data were processed

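Hippocampal RNA of 8 strains was measured on 32 arrays, 4 a strain. The deposited intensities are linear signals that the authors computed with MAS5, per the submitters' processing notes (no version stated). Neither a scaling target nor detection calls were used here. Trimmed mean intensity was 100.05 to 100.07 on every array, so no scaling was added. Sample titles gave strain and array number, and the series design puts arrays 1 and 2 in preparation 1. The strain written hippocampus_129S1SvImJ is 129S1/SvImJ, as the figures name it.

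The file holds 12488 probe sets, 66 of them controls, which were dropped. Deposited signals below 1 (2.14%) were raised to 1 before log2. Tested were the 60% of highest mean, at a geometric mean signal of 21.29 or more. The 2 arrays of a preparation were averaged, and limma 3.58.1 (R 4.3.3; lmFit, eBayes with trend) fitted 8 strain means to 16 values, leaving 8 residual degrees of freedom. Its moderated F-test had Benjamini-Hochberg adjustment over all 7453 probe sets and a threshold of 0.05. A listed gene stands for its brightest tested probe set. The script was tested on simulated data. Variance shares came from nested mean squares. A shift between preparations that the strains have in common counts in the preparation share, and a negative share is set to 0. Gene names came from the platform annotation, and all 15 lipid handling probe sets matched RefSeq (GRCm38.p6) by Entrez number.

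Members, lists, tests and alternatives were chosen with earlier results of these data known. Named genes were all members, each list gene past the F-test and, per member, the 3 genes of most similar strain means. Neighbouring genes, promoter motifs, single marker genes and genes called only with the block were chosen after values were seen. The preparation number pairs samples across strains by the series design, and preparation differences correlated between strains at 0.109 to 0.557 over 28 pairs, and at 0.109 to 0.244 in the 7 pairs with BALB/cByJ. In the titles, arrays 3 and 4 of BALB/cByJ and arrays 2, 3 and 4 of FVB/NJ carry other days than the same arrays of the remaining strains, and array 2 of FVB/NJ has the day of their array 3. Counts with the block rest on the numbers of the series design. P-values measure the spread of preparations, not of mice. No arrays were identical. Alternatives covered normalization, filter, offset, block, unit, variance trend, array 2 of FVB/NJ, BALB/cByJ, and each array and preparation left out.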

Additional observations from a re-analysis of the deposited data

Results flagged for a closer look

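In 160 groups of 4 arrays (20 probe sets in 8 strains), 16 had 1 array far from the other 3 by Dixon's test. Chance flags about 1 in 20 such groups. All 16 were array 1 or 2 of a strain, the arrays of preparation 1. All values are log2 signals. Lpl on 160083_at read 5.74 on array 1 of C3H/HeJ, against 5.99 to 6.03 on the others of that strain. In C57BL/6J, array 1 had 3.07 for Lpl on 160083_at, against 4.55 to 4.79. Lpl on 95611_at read 4.92 on array 2 of C57BL/6J, against 5.78 to 5.90 on the others of that strain. In C3H/HeJ, array 1 had 6.82 for Scd1 on 94057_g_at, against 8.48 to 8.77. Scd1 on 94057_g_at read 7.47 on array 2 of C57BL/6J, against 8.53 to 8.66 on the others of that strain. In FVB/NJ, array 1 had 10.30 for Scd2 on 162077_f_at, against 9.71 to 9.78. Scd2 on 95758_at read 11.20 on array 1 of C3H/HeJ, against 10.52 to 10.63 on the others of that strain. In DBA/2J, array 2 had 6.43 for Acaa1a, against 6.85 to 6.89. Acaa1b on 102004_at read 4.39 on array 2 of SJL/J, against 5.35 to 5.45 on the others of that strain. In hippocampus_129S1SvImJ, array 1 had 5.31 for Acaa1b on 99571_at, against 6.43 to 6.63. Abca1 on 94354_at read 5.35 on array 1 of FVB/NJ, against 6.20 to 6.31 on the others of that strain. In C57BL/6J, array 1 had 8.20 for Fasn, against 8.03 to 8.05. Apod read 7.35 on array 2 of C57BL/6J, against 8.14 to 8.29 on the others of that strain. In FVB/NJ, array 1 had 6.59 for Apod, against 7.25 to 7.38. Fabp7 read 8.03 on array 1 of FVB/NJ, against 8.61 to 8.63 on the others of that strain. In C57BL/6J, array 2 had 9.86 for Dbi, against 9.40 to 9.42.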

How the results depend on the processing

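The results were recomputed under 60 alternatives, 12 of them changes of processing or unit and 48 with 1 array or 1 preparation left out. With the preparation block (paired analysis) the F-test called 1405 probe sets in place of 341, 8 lipid handling probe sets in place of 4 and 21 lipid pathway genes in place of 6. Single arrays as units gave 1388, 7 and 23, and single arrays with the day in the title as a covariate gave 2324, 8 and 31. With the 40% highest probe sets tested, 2 lipid handling probe sets were called, since 160083_at and 99571_at were then too dim to be tested. Leaving out 1 array or preparation gave 259 to 380 probe sets, 3 to 5 lipid handling probe sets and 4 to 8 pathway genes. C57BL/6J stayed lowest for both Lpl probe sets under all 60 alternatives, and FVB/NJ highest for Scd1 on 94056_at, though the F-test called this last probe set under only 9 of them. Over the 14 tested lipid handling probe sets and the 6 called pathway genes, no difference between the highest and lowest strain turned its sign under these alternatives. Many of them, such as leaving out an array of another strain, cannot change such a difference, so little is read from this. The strains at the ends did change: for 102004_at the lowest strain was kept under 45 of 60 and the highest under 51. Offsets of 16 and 64 before log2 shrank the Lpl difference of DBA/2J and C57BL/6J on 160083_at to 1.34 and 0.73, and that of Acaa1b between SJL/J and BALB/cByJ to 1.79 and 0.96, since an offset compresses dim signals. Without preparation 1 of C57BL/6J, 160083_at of Lpl was not called. Dbi had an adjusted p of 0.084 without the variance trend and 0.067 and 0.051 without preparation 1 or 2 of BALB/cByJ, and Hsd17b12 had 0.069 without the variance trend and also with array 2 of FVB/NJ moved to the second preparation. Abcd3 and Acaa2 were called under all 60. Probe sets near the tested limit, such as 94058_r_at and 102004_at, limit what can be said of strain order.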
